A study of Mus musculus with 2 samples.

Results

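Circulating monocytes that enter the heart were sought in the non-cardiomyocytes of mouse hearts with a rule on UMIs, the molecule tags counted once per captured transcript. A barcode was a member when it held at least 1 UMI of at least 3 of 8 selecting genes (Plac8, Ly6c2, Ccr2, Chil3, Vcan, Itgal, Ace and Treml4), at most 2 UMIs of C1qa, C1qb and C1qc together, fewer than 10 UMIs of S100a8 and S100a9 together, and none of Cd209a, Flt3, Cd3e and Cd79a. The members were therefore chosen by the measured values of these 17 genes, whose levels below are descriptions only. The rule took 300 of 15964 kept barcodes, 47 of 7964 in the sham library and 253 of 8000 in the TAC library. The cells came from hearts of male C57BL6/J wildtype mice on day 20 after sham surgery or after transverse aortic constriction (TAC), a band on the aortic arch that raises the pressure load of the left ventricle. Both groups carried the same genotype and differed in the surgery. Each group was 1 library on 1 lane of a 3′ droplet chip, of viable cells sorted after enzymatic digestion and settling of cardiomyocytes. The ages and the number of hearts behind each library are not given in the labels, so surgery, heart and library cannot be told apart, no difference between the libraries has a replicate check, and no p-value is given.

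Monocytes are blood leukocytes of the bone marrow lineage. Classical mouse monocytes carry Ly6C and the chemokine receptor CCR2, leave the marrow along CCL2, and enter injured tissue, where they can become macrophages; their known transcripts include Plac8, Chil3 (a chitinase-like protein), Hp (haptoglobin) and Fn1. Non-classical monocytes patrol the vessel wall, depend on the nuclear receptor Nr4a1, and are marked by Treml4, Ace, Ear2 and Spn. Resident cardiac macrophages are marked by the complement genes C1qa, C1qb and C1qc, and many by Mrc1, Folr2 and Lyve1. Some of the selecting genes are not particular to monocytes: Vcan encodes versican, a proteoglycan of the extracellular matrix, and Ace encodes angiotensin-converting enzyme, found in endothelium and in activated connective tissue.

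The sham library held 42490230 UMIs in 8426 barcodes and the TAC library 96003109 UMIs in 8901 barcodes. Barcodes with at least 500 genes, at least 1000 UMIs and at most 15% mitochondrial UMIs were kept, which left out 462 and 901. The kept sham barcodes had a median of 4895.5 UMIs and the kept TAC barcodes 11237. Members had medians of 6748 and 13275 UMIs. The libraries shared 15 barcode sequences, of which 0 were members. Levels are given as CPM, the UMIs of a gene per 1000000 UMIs summed over a class of barcodes. All intervals are exact 95% intervals that cover counting error only, not the spread between hearts.

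The data went against the name monocyte for most members. Fibroblast genes led them: Dcn (decorin) stood at 23396 CPM in sham and 18931 CPM in TAC in 278 of the 300 members, and Gsn (gelsolin) at 39702 and 24406 CPM. These 278 barcodes, 40 in sham and 238 in TAC, are called fibroblast-gene members here. They held at least 1% of their UMIs in 7 fibroblast genes (Col1a1, Col1a2, Col3a1, Dcn, Pdgfra, Gsn and Lum) and under 0.5% in 8 leukocyte genes (Ptprc, Tyrobp, Fcer1g, Laptm5, Coro1a, Cd52, Lyz2 and Csf1r). Dcn was seen in 40 of 40 and 238 of 238 of them. Ptprc, the pan-leukocyte CD45 gene, was seen in 4 of 40 and 4 of 238, and Csf1r, the receptor for macrophage colony-stimulating factor, in 2 and 13. The other 22 members, 7 in sham and 15 in TAC, had at least 0.5% of their UMIs in the leukocyte genes and are called leukocyte-gene members. Ptprc was seen in 7 of 7 and 15 of 15 of them, at 958 and 893 CPM, against 27.3 and 3.48 CPM in the fibroblast-gene members. The 2 limits were set after the values were seen and are descriptive. Dcn, Gsn, Ptprc and Csf1r are among the genes of these limits, so their levels in each kind are partly set by the split.

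**Figure D1:**
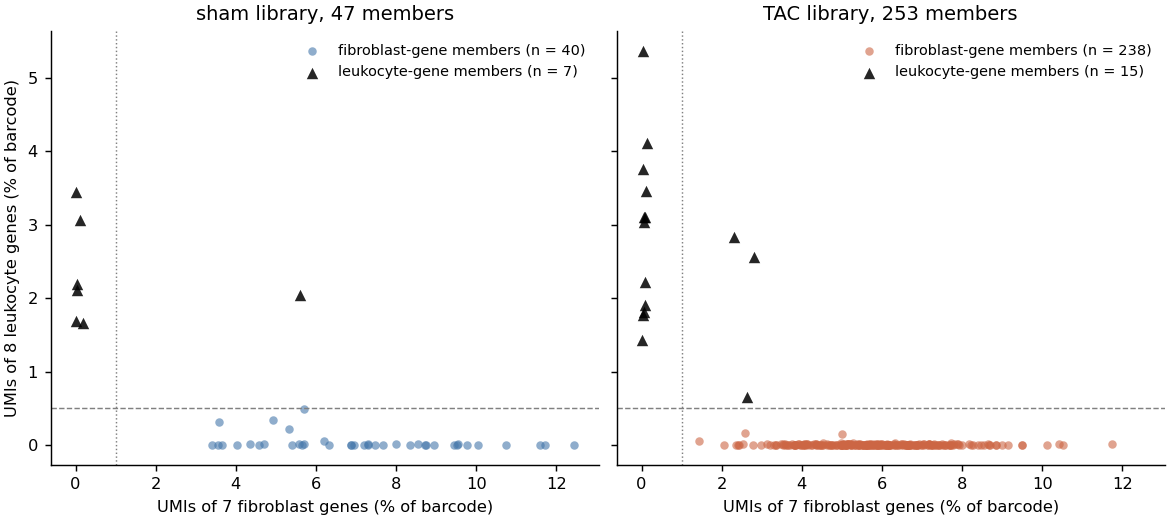
Share of each member's UMIs in 8 leukocyte genes (vertical axis, percent) against the share in 7 fibroblast genes (horizontal axis, percent), with 1 point per member and 1 panel per library. The dashed line at 0.5% separates the 7 sham and 15 TAC leukocyte-gene members from the fibroblast-gene members, and the dotted line marks 1% in fibroblast genes.

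The leukocyte share had a median of 0 in the fibroblast-gene members of both libraries, with a highest value of 0.488% in sham and 0.170% in TAC. In the leukocyte-gene members it ran from 1.67% to 3.45% in sham and from 0.648% to 5.37% in TAC. No sham member thus lay between 0.488% and 1.67%. The gap in TAC lay between 0.170% and 0.648%. The 12 monocyte genes outside the rule (among them Csf1r, Lyz2, Ms4a6c, F13a1, Cd300ld, Adgre4, Spn, Nr4a1, Ear2, Cx3cr1 and Hp) summed to 12563 and 15918 CPM in the leukocyte-gene members of sham and TAC, to 16584 and 16698 CPM in C1q-positive macrophages, and to 1553 and 769 CPM in the fibroblast-gene members. In the latter Cd300ld, Ear2 and Cx3cr1 were at 0 in sham, and Cd300ld, Adgre4, Ear2 and Cx3cr1 were at 0 in TAC. Csf1r and Lyz2 are also among the leukocyte genes that split the members, so the sums of the 12 genes are partly set by that split.

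The selecting genes themselves showed which barcodes the rule reached. Vcan and Ace were both present in 38 of the 47 sham members and 239 of the 253 TAC members, so that a single further gene sufficed. That combination was common among all barcodes with fibroblast genes. Vcan was seen in 47.6% of them in sham and 79.4% in TAC, at 184 and 280 CPM, and Ace in 63.7% and 93.9%, at 239 and 452 CPM. In C1q-positive macrophages Vcan stood at 19.0 and 33.5 CPM and Ace at 27.6 and 43.9 CPM. Most members, 41 in sham and 235 in TAC, passed on exactly 3 genes, and in 30 and 166 of them the gene beside Vcan and Ace rested on 1 UMI. In the TAC fibroblast-gene members that further gene was Plac8 in 155, Ccr2 in 54, Itgal (the integrin alpha L chain of leukocytes) in 22, Ly6c2 in 12 and Chil3 in 1. Of the 155 with Plac8, 90 held 1 UMI and 44 held more than 2, up to 19, whereas 52 of the 54 with Ccr2 and 22 of the 22 with Itgal held 1 UMI. In the 38 sham fibroblast-gene members with both Vcan and Ace it was Plac8 in 13, Ly6c2 in 11, Itgal in 10 and Ccr2 in 5. Chil3, the most particular of the classical genes, was seen in 1 sham and 7 TAC members.

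**Figure D2:**
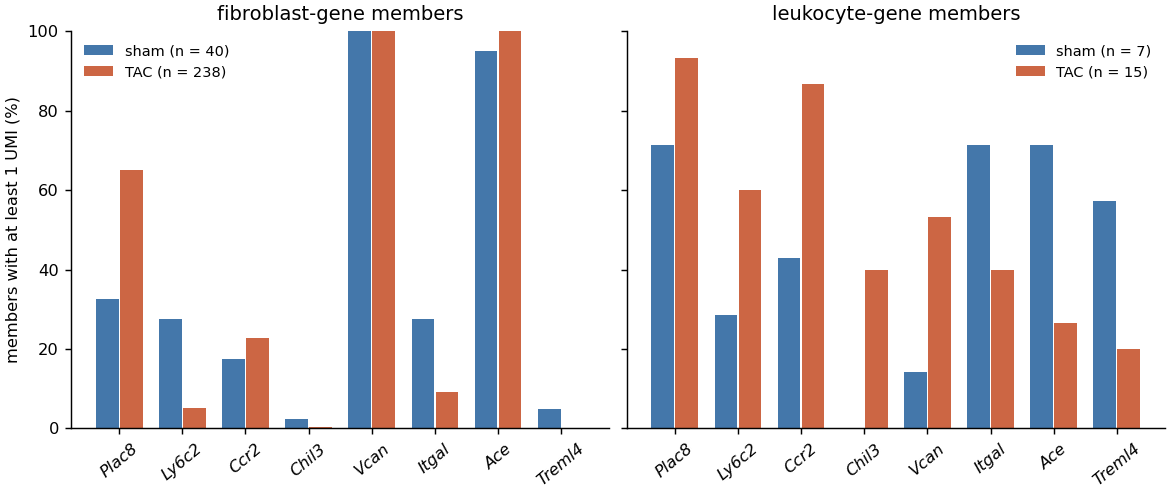
Percent of members with at least 1 UMI of each of the 8 selecting genes, by kind of member and library, as bars from 0. Vcan and Ace are in nearly every fibroblast-gene member of both libraries, whereas Plac8, Ccr2 and Ly6c2 lead the 15 TAC leukocyte-gene members and Treml4 is in 4 of the 7 in sham.

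Free RNA in droplets was not measured here, and its part in these single UMIs was not tested. Shares in barcodes with endothelial genes are given beside those of fibroblast-gene barcodes as description. Ccr2 was seen in 0.325% of all sham fibroblast-gene barcodes and 1.15% of those in TAC, against 0.412% and 1.05% of endothelial-gene barcodes, which had fewer UMIs (medians of 2574 and 5626). The endothelial-gene barcodes numbered 243 in sham and 954 in TAC, so a share of 0.412% in sham stands for very few barcodes. The Ccr2 shares lay near those of endothelial-gene barcodes, without depth matched. Ly6c2 was in 0.422% and 0.274% of fibroblast-gene barcodes against 0.412% and 1.78% of endothelial-gene barcodes. Ly6c2 lies beside its near-identical copy Ly6c1, an endothelial gene, so its counts are uncertain where Ly6c1 is high. The Plac8 shares were 0.893% and 4.02% of fibroblast-gene barcodes in sham and TAC, against 0.412% and 0.419% of endothelial-gene barcodes, again few barcodes of lower depth. With every barcode thinned to 3000 UMIs the Plac8 shares were 0.658% and 1.45% of fibroblast-gene barcodes. The difference from endothelial-gene barcodes at equal depth is not given here.

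The limits of the rule left out many more barcodes than they let in. Exactly 2 selecting genes, with every other condition met, were seen in 2040 sham and 4057 TAC barcodes. Among members the C1q sum was 0 in 40 sham and 196 TAC barcodes, 1 in 7 and 55, and 2 in 0 and 2. Just outside, barcodes that met all other conditions had a C1q sum of 3 in 1 sham and 7 TAC barcodes, of 4 to 9 in 1 and 2, and of 10 or more in 25 and 43. The 4 marker genes given for monocytes (Ly6c2, Plac8, Ccr2 and Chil3) gave a different selection. At least 3 of these 4 were seen in 13 sham and 67 TAC barcodes, of which 1 and 11 were members, all of them leukocyte-gene members. Of the 67 in TAC, 52 had a C1q sum of 10 or more and so fell to the macrophage side, with up to 1409 C1q UMIs.

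Members were 0.590% (0.434% to 0.784%) of sham barcodes and 3.16% (2.79% to 3.57%) of TAC barcodes, a ratio of 5.36 (3.91 to 7.48). The libraries differed in depth. A rule that asks for single UMIs can take more barcodes from a deeper library, while its limits on C1q and the excluded genes can leave out more. The part of each was not tested. With every barcode thinned to 3000 UMIs and the rule applied again, 14 of 6962 sham barcodes (0.201%) and 29 of 7487 TAC barcodes (0.387%) were members, and the ratio was 1.93 (0.986 to 3.95), an interval that includes 1. Thinning left out 1002 sham and 513 TAC barcodes that were shallower. The 2 kinds differed in this. Fibroblast-gene members had a ratio of 5.92 (4.22 to 8.50) as deposited and 1.35 (0.589 to 3.22) after thinning, with 11 and 16 barcodes. Leukocyte-gene members, 7 of 7964 (0.0879%) in sham and 15 of 8000 (0.188%) in TAC, had a ratio of 2.13 (0.819 to 6.19) as deposited and 3.72 (1.00 to 20.5) after thinning, with 3 and 12 barcodes, of which 1 and 11 had met the rule on the counts as deposited. C1q-positive macrophages, with at least 10 C1q UMIs, were 13.5% of sham and 9.475% of TAC barcodes.

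The genes of all members were next compared between TAC and sham. Several genes of the extracellular matrix were among those with the largest ratios. Mfap4, a microfibril-associated protein, stood at 40.8 CPM in sham and 970 CPM in TAC, 23.8-fold (13.9 to 44.7). Postn, the matricellular protein periostin, stood at 90.9 and 1073 CPM, 11.8-fold, and Timp1, an inhibitor of metalloproteinases, at 31.4 and 400 CPM, 12.8-fold. Comp, cartilage oligomeric matrix protein, had 0 UMIs in the sham members and 1876 UMIs in 76 of the TAC members, a ratio of at least 55.8-fold with the sham sum set to 3 counts. The protease inhibitor gene Serpina3n stood at 31.4 and 485 CPM, 15.5-fold, and the complement gene C4b at 12.5 and 209 CPM, 16.7-fold. Genes outside the matrix were among the largest ratios too, each from 1 UMI in the sham members: Gucy1a1, a subunit of soluble guanylate cyclase, stood at 3.13 and 99.0 CPM, Actn1, an actinin, at 3.13 and 90.03 CPM, and Unc5b, a netrin receptor, at 3.13 and 62.6 CPM. With at least 4 selecting genes asked for, the log2 ratio of Actn1 was −1.35. Lower in TAC were the chemokine genes Ccl7, at 520 CPM in sham and 17.3 CPM in TAC (30.0-fold lower), and Ccl11 (eotaxin), at 185 and 14.0 CPM. Ccl11 was seen in 6 sham and 12 TAC members. In the 15 sham and 75 TAC members that held Csf1r or Lyz2 and no UMI of lymphocyte genes its log2 ratio was 3.97, the other direction. Efemp1, a fibulin, was 19.0-fold lower, and the chemokine scavenging receptor gene Ackr3 stood at 850 and 93.7 CPM. In both directions these are levels of mostly fibroblast-gene barcodes in 2 libraries, with no replicate of either.

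Of 3909 genes measured at 50 CPM or more in either library, 222 (5.68%) were at least 2-fold higher in TAC and 211 (5.40%) at least 2-fold lower, on the log2(CPM + 1) scale. The median log2 ratio of all of them was −0.12, and with ratios centred on that median 276 were higher and 159 lower. Of the lists, 5 of 5 measured MHC class II genes were at least 2-fold lower (median log2 ratio −3.68), as were 4 of 8 NADPH oxidase and granule genes, 2 of 4 complement and coagulation genes, 3 of 6 chemokine and cytokine genes, 3 of 6 trafficking genes, 5 of 14 heat shock genes, 3 of 13 myeloid transcription factors, 4 of 19 immediate early genes and 4 of 19 actin and motility genes. At least 2-fold higher were 5 of 12 glucocorticoid-responsive, 4 of 12 interferon-stimulated and 3 of 9 glycolysis and hypoxia genes. The mix of members differed between the libraries. Leukocyte-gene members held 26109 of the 319017 member UMIs in sham and 127714 of 3576629 in TAC. The part of this mix in the list values was not tested. The MHC class II counts in sham came from few barcodes: 140 of 262 Cd74 UMIs and 76 of 161 H2-Aa UMIs of the sham members lay in 1 barcode each. Itgb7, Cd300c2, Rgs2 and Dusp5 were among the 12 genes with the lowest ratios over all members, yet in the other fibroblast-gene barcodes their ratios lay between 1.16 and 1.96 towards TAC.

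The same differences stood in fibroblast-gene barcodes outside the rule for most named genes. In the fibroblast-gene members Mfap4 was at 44.4 and 997 CPM, and in the 6119 sham and 5236 TAC fibroblast-gene barcodes that the rule left out it was at 132 and 1107 CPM. Timp1 was 12.04-fold higher in TAC in the fibroblast-gene members and 9.54-fold higher in the others. Comp stood at 7.27 and 484 CPM in the others, a 66.6-fold ratio. Postn had a ratio of 11.01 in the fibroblast-gene members and 28.7 in the others. Its sham level was 99.0 CPM in the fibroblast-gene members and 46.8 CPM in the others. Of all 47 sham members, 3 held Postn UMIs. Scara5, a scavenger receptor of fibroblasts, was 9.27-fold lower in the members and 8.86-fold lower in the others. In C1q-positive macrophages of the same libraries Mfap4, Timp1 and Postn were at 15.2, 3.31 and 1.98 CPM in sham and at 88.0, 29.1 and 152 CPM in TAC, and Ccl7, which macrophages also make, was at 426 and 306 CPM.

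**Figure D3:**
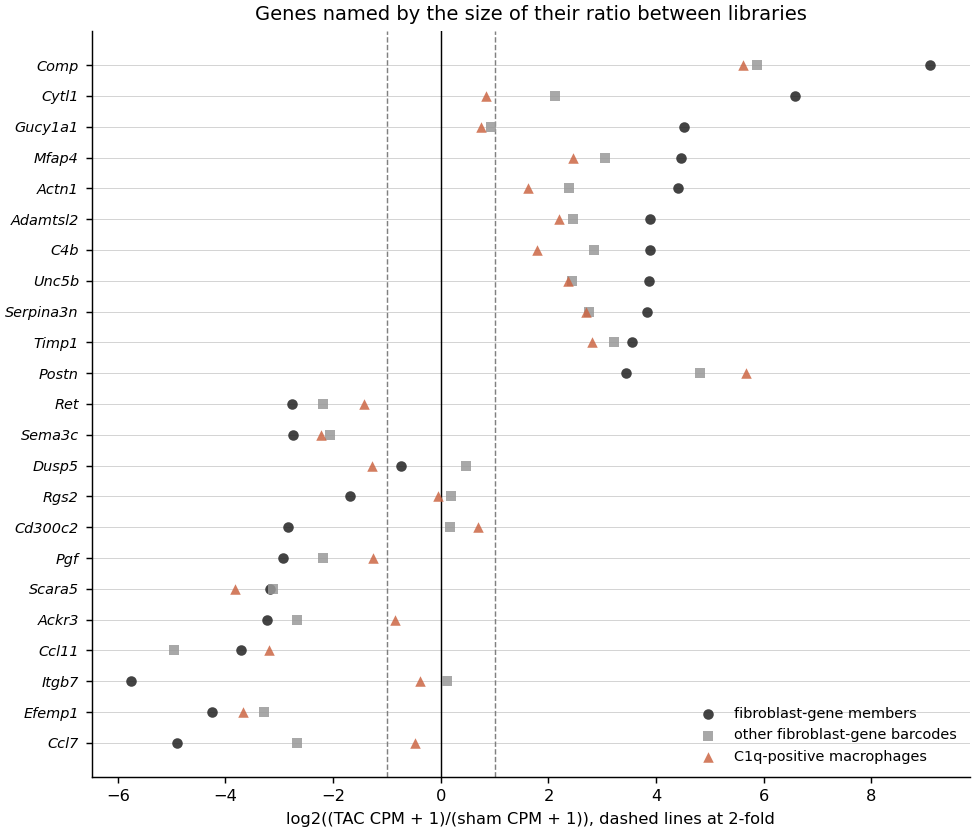
Log2 ratio of TAC over sham (horizontal axis, log2 of CPM + 1) of 23 of the genes with the largest ratios over all members, in fibroblast-gene members, in other fibroblast-gene barcodes and in C1q-positive macrophages. The points of fibroblast-gene members and other fibroblast-gene barcodes lie on the same side of 0 for all but Itgb7, Cd300c2, Rgs2 and Dusp5.

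Fibroblast-gene members stood apart from other fibroblast-gene barcodes of the same library in a group of interferon-stimulated genes. In TAC, Isg15, a ubiquitin-like modifier, was at 234 CPM in members and 74.5 CPM in the others, 3.14-fold (2.91 to 3.38). Ifit1, which encodes a protein that binds foreign RNA, was at 121 and 36.9 CPM, 3.29-fold (2.96 to 3.65). Its family member Ifit3 was at 216 and 70.4 CPM, 3.07-fold. Irf7, a transcription factor of the interferon response, was at 129 and 41.4 CPM, 3.13-fold. Ly6a, the Sca-1 surface protein, was at 1265 and 592 CPM, 2.14-fold. Of 3387 genes measured in TAC, 13 (0.384%) were at least 2-fold higher in the members and 4 (0.118%) at least 2-fold lower. Of the interferon list, 7 of 12 measured genes were at least 2-fold higher and 12 of 12 above 0, with a median log2 ratio of 1.10 against −0.01 over all measured genes. Iigp1, Gbp3, Oasl2, Gbp2, Phf11d and Xaf1 were also at least 2-fold higher, between 2.04-fold and 2.67-fold. Ly6c1 was at 126 and 59.9 CPM, 2.10-fold (1.90 to 2.32). The 6 endothelial markers summed to 291 CPM in members and 216 CPM in the others in TAC, and to 191 and 64.2 CPM in sham; their part in the result was not tested. Among the genes with lower levels, Tagln, a smooth muscle actin-binding protein, was at 34.5 and 62.5 CPM, and Thbs4, a thrombospondin, at 108 and 161 CPM.

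In sham, with 40 fibroblast-gene members, 49 of 3764 measured genes (1.30%) were at least 2-fold higher and 45 (1.20%) at least 2-fold lower than in the other fibroblast-gene barcodes. Irf7 was at 85.4 and 22.03 CPM, 3.87-fold (2.49 to 5.77), but 17 of its 25 UMIs lay in 1 barcode. Ly6a was at 1529 and 749 CPM, 2.04-fold (1.86 to 2.24). The intervals of Isg15, Ifit1 and Ifit3 included 1, with ratios of 1.61, 1.39 and 1.55 from 13, 11 and 13 UMIs. Of the interferon list 2 of 8 measured genes were at least 2-fold higher, with a median log2 ratio of 0.75 against 0.03. Leukocyte genes differed more: 4 of 4 measured MHC class II genes, with a median log2 ratio of 5.29, and 5 of 10 measured classical monocyte genes were at least 2-fold higher. Cd74, the invariant chain of MHC class II, was at 772 and 18.5 CPM, with 140 and 83 of its 226 UMIs in 2 barcodes, and Coro1a, a leukocyte actin regulator, was at 130 and 2.14 CPM, with 26 of its 38 UMIs in 1 barcode. Lgals3 (galectin-3) was at 51.2 and 3.92 CPM and Itgb7, an integrin chain of leukocytes, at 68.3 and 0.0957 CPM.

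The promoters of Isg15, Ifit1 and Ifit3, the measured interferon-list genes with the largest ratios whose windows hold a match, are shown because they carry the short GAAA repeats to which interferon-activated factors are known to bind. The stretches are from RefSeq on GRCm38.p6, 5′ to 3′ on the strand of the gene, and capitals mark matches to the motif GAAA, any 2 bases, GAAA, or to its reverse complement TTTC, any 2 bases, TTTC, joined where they overlap. The Isg15 stretch is chr4:156200856-156200915 on the minus strand, the Ifit1 stretch chr19:34640769-34640828 on the plus strand, and the Ifit3 stretch chr19:34583365-34583424 on the plus strand.
Isg15: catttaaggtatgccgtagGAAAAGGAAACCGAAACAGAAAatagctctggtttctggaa
Ifit1: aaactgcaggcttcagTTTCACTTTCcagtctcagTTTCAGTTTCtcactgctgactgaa
Ifit3: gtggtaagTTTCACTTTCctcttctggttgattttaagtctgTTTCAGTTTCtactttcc
In windows from 250 bases before to 50 bases after the start, the Isg15 window held 3 matches and those of Ifit1 and Ifit3 held 2 each. The motif was in 9 of 15 interferon-list genes with a window and in 1079 of 27025 genes (3.99%) of the whole table, counting a gene when any of its windows matched. It was in 0 of the 7 selecting genes with a window, among them Plac8. No match says only that these letters are not in these windows.

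The interferon list was higher in fibroblast-gene members with Plac8 than in those without. Summed over its 20 genes it stood at 7075 CPM in the 155 TAC fibroblast-gene members with Plac8 and at 4288 CPM in the 83 without. In barcodes outside the rule it was at 5993 CPM in the 65 fibroblast-gene barcodes with Plac8 and at 3906 CPM in the 5171 without. Per barcode, the medians were 51.4, 35.4, 47.0 and 31.5 UMIs per 10000 in that order. Of the 155, 64 (41.3%) lay above the highest decile limit of the other fibroblast-gene barcodes, 64.0 per 10000, as did 12 of the 83 (14.5%), 19 of the 65 (29.2%) and 505 of the 5171 (9.77%). The distributions overlapped widely: the members with Plac8 ran from 7.14 to 296 per 10000. Isg15 was at 294 CPM in members with Plac8 and 118 CPM in those without, and Irf7 at 163 and 64.2 CPM. In sham the sums were 7141 CPM in the 13 members with Plac8, 2786 CPM in the 27 without, 4311 CPM in the 42 other barcodes with Plac8 and 3018 CPM in the 6077 without. The sham medians per barcode were 34.5, 23.7, 35.7 and 26.3 UMIs per 10000 in that order. Per barcode, members with Plac8 thus did not stand above the other sham barcodes with Plac8. The 13 ran from 22.3 to 281 per 10000, and 5 of them lay above the sham decile limit of 49.4.

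**Figure D4:**
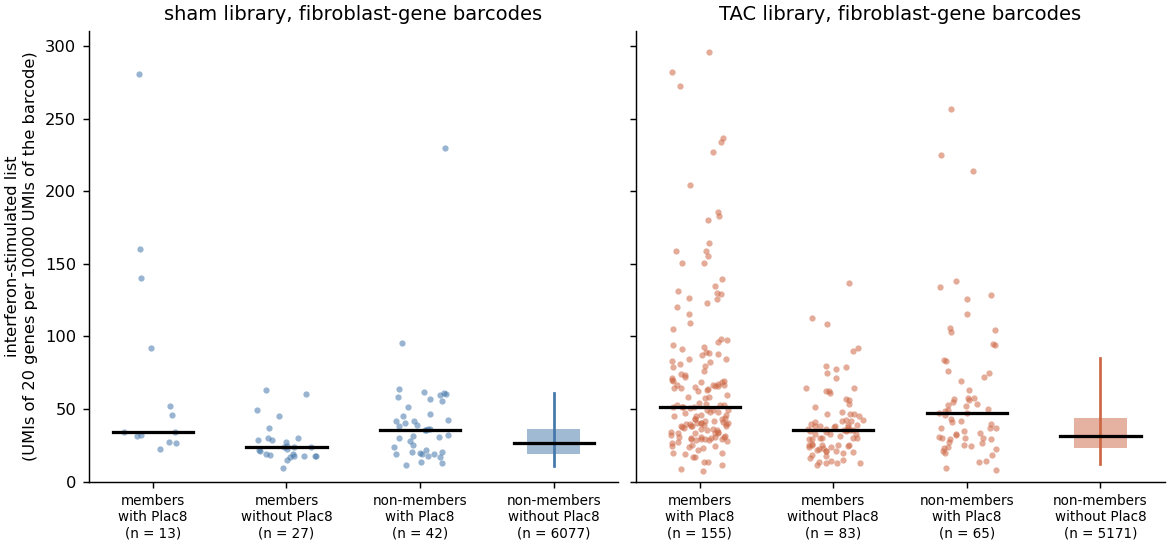
UMIs of the 20 interferon-list genes per 10000 UMIs of a barcode (vertical axis) in fibroblast-gene members and other fibroblast-gene barcodes with and without Plac8, by library, with 1 point per barcode and a black line at each median. For the large groups without Plac8 outside the rule the box spans the 25th to 75th percentile and the line the 5th to 95th, and in TAC the medians are 51.4, 35.4, 47.0 and 31.5.

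The other genes that completed the rule were less alike in this. The TAC fibroblast-gene members with Ccr2, 54 barcodes, had 3688 CPM of the interferon list, 0.939 times the level of other fibroblast-gene barcodes without Ccr2. The 22 with Itgal had 5081 CPM (1.29 times) and the 12 with Ly6c2 7467 CPM (1.90 times). These ratios did not all recur elsewhere. In TAC fibroblast-gene barcodes outside the rule they were 0.971 with Ccr2 (9 barcodes), 0.713 with Itgal (5) and 0.715 with Ly6c2 (3). In sham fibroblast-gene members they were 0.751 (7 barcodes), 1.16 (11) and 0.933 (11). In sham barcodes outside the rule they were 0.827 (13), 1.02 (22) and 1.35 (15). In C1q-positive macrophages the list was at 4105 CPM in sham and 5933 CPM in TAC. The median depth in TAC was 13761 UMIs in members with Plac8, 13178 in members without, and 12111 in the other fibroblast-gene barcodes. The other fibroblast-gene barcodes with Plac8 had a lower median, 10382 UMIs. Thinned to 3000 UMIs, members with and without Plac8 both had a median of 4 list genes seen, the other barcodes with Plac8 5 and those without 3. Whether Plac8 and the interferon genes share a source in these barcodes was not tested.

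The 22 leukocyte-gene members are few enough to give by barcode. Of the 15 in TAC, 10 lay on the Ly6c2 side (at least 1 UMI of Ly6c2 or Chil3, none of Ace and Treml4), 4 on the Ace side (the reverse) and 1 on both. Of the 7 in sham, 5 lay on the Ace side and 2 on the Ly6c2 side. The selecting genes in these barcodes are present by selection and are given as description only. The TAC barcode with the most Chil3 UMIs held 44 Chil3, 6 Ly6c2, 14 Ccr2, 29 Plac8 and 272 Lyz2 UMIs among 7710. Another held 21 Chil3, 15 Ccr2 and 26 Plac8 UMIs among 11470, and 1 more held 66 Plac8 and 3 Ly6c2 UMIs among 9669.

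Other genes varied among the TAC barcodes on the Ly6c2 side. Thbs1, the matricellular protein thrombospondin 1, was at 159, 131, 85 and 41 UMIs in 4 of them, and at 13 or fewer in each of the others. Slpi, a secreted inhibitor of leukocyte proteases, had 239 UMIs in 1 barcode of 12575 UMIs and 26 in another. A barcode with 15 Ccr2 UMIs among 3862 also held 103 Cd74 and 17 H2-Aa UMIs, genes of antigen presentation, and 0 Ly6c2 and 1 Chil3 UMIs. The shallowest, with 1404 UMIs, had 10 Plac8 and 7 Ccr2 UMIs and 11.2% mitochondrial UMIs.

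Most sham leukocyte-gene members lay on the Ace side, which Ace and Treml4 define. The 5 sham barcodes there had 1247 to 2786 UMIs, Treml4 at 3, 2, 2, 1 and 0 UMIs and Ear2, an eosinophil-associated ribonuclease of non-classical monocytes, at 3, 2, 3, 0 and 2. Adgre4, an adhesion receptor of these cells, was seen in 4 of them and Nr4a1 in 4. In TAC a barcode of 4085 UMIs held 5 Ace, 4 Treml4, 8 Ear2 and 4 Spn UMIs, and another of 3107 UMIs held 5 Treml4 and 1 Ear2 UMIs. A deeper TAC barcode on this side, with 7007 UMIs, held 99 Cd74, 40 H2-Aa and 31 Plac8 UMIs beside 1 Treml4 UMI and none of Ace.

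Marker genes of other cells stood beside the leukocyte genes in 5 of the 22 barcodes. In sham, 1 barcode of 9312 UMIs held 26 Plac8, 7 Ly6c2, 9 Ccr2 and 144 Lyz2 UMIs together with 206 Dcn and 280 Gsn UMIs, 5.61% of its UMIs in fibroblast genes. In TAC, 2 barcodes with 23 and 19 Plac8 UMIs held 115 and 133 Dcn UMIs. The other sham barcode of the Ly6c2 side had 0 Lyz2 and 0 Csf1r UMIs and 364 UMIs of Gzmc, a granzyme, with 37 of Nkg7 and 32 of Xcl1, genes of cytotoxic lymphocytes. A TAC barcode of 20517 UMIs held 35 Nkg7, 29 Gzma and 191 Dcn UMIs with 1 Lyz2 UMI. Scrublet called 1 of the 7 sham and 0 of the 15 TAC leukocyte-gene members a doublet, and the part of doublets in these barcodes was not tested further. Cd209a and Flt3 of dendritic cells were at 0 in all members by the rule; of the other genes of the list, Xcr1, Clec9a, Zbtb46 and Ccr7 were at 0 in the leukocyte-gene members too, and Fscn1 was at 0 in sham and at 31.3 CPM in TAC.

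**Figure D5:**
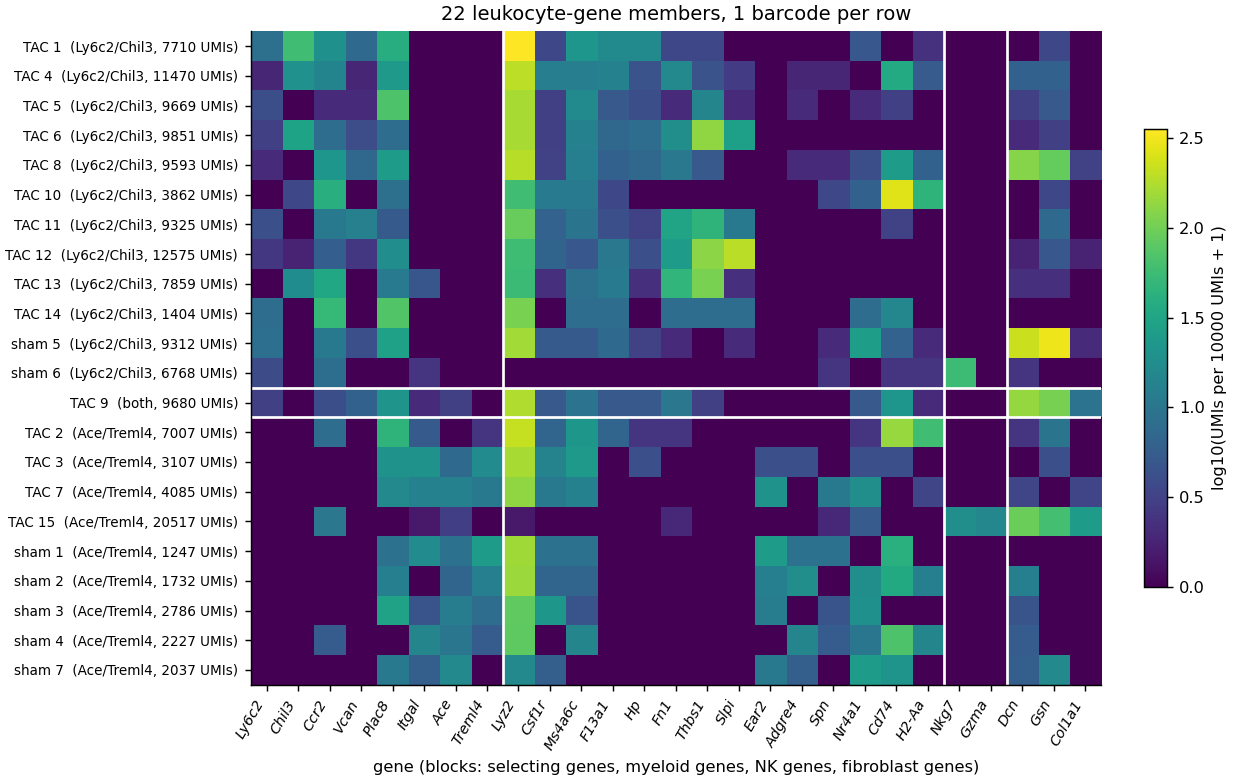
UMIs of 27 genes per 10000 UMIs, as log10(value + 1), in each of the 22 leukocyte-gene members, with 1 barcode per row, genes in columns and lighter cells for higher values. Chil3, which helps to define the Ly6c2 side, lies in TAC barcodes of that side. Ear2 lies in barcodes of the Ace side, and Dcn and Gsn are bright together in 1 sham and 3 TAC barcodes.

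Without those 5 barcodes, 9 were left on the Ly6c2 side, all from TAC, and 8 on the Ace side, 5 from sham and 3 from TAC, so side and library cannot be told apart. Several genes outside the rule differed between the 2 sides along the known division of monocytes, but not all did. Of the classical genes, Ifitm6 was 2.07-fold (1.05 to 3.99) higher on the Ace side. Tmem176a, Sirpb1c, Gsr, Mgst1, Ms4a4c and Clec4e were among those with intervals that included 1. Of the non-classical genes, Cd300ld leaned to the Ly6c2 side, 2.14-fold (0.484 to 19.5). Fn1, which encodes fibronectin, was at 1804 CPM on the Ly6c2 side and 41.3 CPM on the Ace side, 43.7-fold (7.71 to 1739) from 133 UMIs and 1 UMI. Cd14, the lipopolysaccharide co-receptor, had 227 UMIs on the Ly6c2 side and 0 on the Ace side, at least 24.9-fold, and Thbs1 436 and 0, at least 47.8-fold. F13a1 (a coagulation factor subunit) was 5.01-fold and Hp 5.42-fold higher on the Ly6c2 side, and Fcgr1, a high-affinity Fc receptor, 24.98-fold.

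Higher on the Ace side were Nr4a1 at 991 against 94.95 CPM (10.4-fold, 4.36 to 28.7) and Spn, the leukocyte sialomucin CD43, at 289 against 27.1 CPM (10.7-fold). Ear2 had 19 UMIs there and 0 on the Ly6c2 side, at least 19.3-fold, and Pglyrp1, a peptidoglycan recognition protein, 15 and 0, at least 15.2-fold. Adgre4, Pou2f2, a B lymphocyte and myeloid transcription factor, and Gngt2 were between 9.41-fold and 13.7-fold higher. Lyz2 and Ms4a6c, which monocytes of both kinds express, are in the classical list here. They stood at 14188 and 1085 CPM on the Ly6c2 side and at 14033 and 1362 CPM on the Ace side. The intervals of both ratios included 1. Cd74 and H2-Aa were 2.65-fold and 6.09-fold higher on the Ace side, where 1 barcode held 99 of 130 and 40 of 46 UMIs.

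Over all 300 members the same division read mainly as leukocyte against fibroblast genes, since 252 of the 261 members on the Ace side were fibroblast-gene members and 0 of the 12 on the Ly6c2 side were. Of 4342 genes measured, 992 (22.8%) were at least 2-fold higher on the Ly6c2 side and 1163 (26.8%) lower. Slpi, Adam8, Fcgr1, Clec4d, C5ar1, Ccr1, Cd14, Arg1, Srgn and Il1b, genes of myeloid cells, led the higher ones. Eln (elastin), Prelp, Emilin1, Cilp, Wisp2, Apod, Hspb1, Mmp3, Angptl7 and Sfrp2, most of them matrix genes, led the lower ones, each with 0 UMIs on the Ly6c2 side. Eln was seen in 24 sham and 212 TAC members, Prelp in 38 and 227, and Emilin1 in 35 and 231.

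Against C1q-positive macrophages (1076 in sham, 758 in TAC), the members as the rule gives them again showed fibroblast genes. Pi16, a peptidase inhibitor of adventitial fibroblasts, was at 1812 CPM in sham members and 114 CPM in sham macrophages, and at 1493 and 119 CPM in TAC. In the 7 sham leukocyte-gene members alone its log2 ratio over macrophages was −6.84. Col3a1 was at 2376 and 204 CPM in sham and at 4789 and 430 CPM in TAC, and Sfrp1, a secreted WNT inhibitor, at 392 and 28.4 CPM and at 683 and 46.5 CPM. Of 3631 genes measured, 579 (15.9%) were at least 2-fold higher in members in both libraries and 496 (13.7%) lower. Among the lower ones, the lectin gene Mgl2 had 0 UMIs in members of both libraries against 1035 and 329 CPM in macrophages, at least 110-fold and 393-fold lower. Mrc1, the mannose receptor, was at 0 and 2.52 CPM against 1050 and 706 CPM, and Pf4 at 12.5 and 9.23 CPM against 3094 and 1545 CPM.

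The leukocyte-gene members of TAC differed from macrophages in macrophage and monocyte genes. The 15 barcodes include the 3 TAC barcodes set apart above for genes of other cells. The 2 classes were split by their C1q UMIs, which bears on other macrophage genes too. All 20 measured macrophage genes outside C1q were at least 2-fold lower in the leukocyte-gene members (median log2 ratio −2.97, against 0.15 over all measured genes). Apoe was at 2545 CPM against 17982 CPM, Selenop, a selenium carrier, at 658 against 4629 CPM, and Mrc1 at 54.8 against 706 CPM. Cd163, Lyve1 and Fcrls had 0 UMIs in the 15 barcodes, at least 11.5-fold, 9.90-fold and 25.9-fold lower. Of 20 classical monocyte genes outside the rule, 13 were at least 2-fold higher and 2 at least 2-fold lower (median 2.67). Hp was at 352 against 26.8 CPM (13.1-fold) in 11, Gsr, glutathione reductase, at 431 against 43.0 CPM (10.0-fold) in 15, and Fn1 at 1206 against 130 CPM (9.26-fold) in 12. The lysozyme gene Lyz2 was at 12912 against 13279 CPM. It is among the 8 leukocyte genes that define these members, so its level in them is partly set by that choice. The 2 lower genes were Ly6c1, at 7.83 against 82.9 CPM, and Tmem176a, at 251 against 659 CPM. Of 12 measured non-classical genes outside the rule, 4 were at least 2-fold higher and 1 at least 2-fold lower (median 0.53).

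Of 3746 genes measured in that comparison, 526 (14.0%) were at least 2-fold higher and 514 (13.7%) lower in the leukocyte-gene members. Glycolysis and hypoxia genes exceeded that share: 13 of 14 were at least 2-fold higher, with a median log2 ratio of 2.05. Pkm, pyruvate kinase, was at 2004 against 404 CPM (4.96-fold), Slc2a1, the glucose transporter GLUT1, at 399 against 23.4 CPM (17.1-fold), Hif1a at 438 against 52.3 CPM (8.38-fold) and Vegfa at 219 against 6.44 CPM (34.1-fold), the last from 5 of the 15 barcodes. MHC class II genes were lower, 5 of 6, with Cd74 at 2286 against 14742 CPM and H2-Eb1 at 298 against 4195 CPM. Of 18 chemokine and cytokine genes, 10 were at least 2-fold lower and 4 higher. Ccl4 had 0 UMIs against 687 CPM and Ccl2, the ligand of CCR2, was at 7.83 against 478 CPM, whereas Il1b was at 1049 against 243 CPM (4.32-fold) in 10 of 15 barcodes. Among trafficking genes 9 of 15 were higher, with Ccr1 at 587 against 131 CPM and the hyaluronan receptor gene Cd44 at 603 against 85.1 CPM.

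Of the single genes with the largest ratios, Thbs1 was at 3461 CPM in leukocyte-gene members of TAC and 69.8 CPM in macrophages, 49.6-fold (43.8 to 56.2), and was seen in 10 of 15 barcodes. Slpi was at 2185 against 16.2 CPM, but 239 of its 279 UMIs lay in 1 barcode. Adam8, a metalloprotease of leukocytes, was at 493 against 14.0 CPM (35.4-fold), and Clec4e and Clec4d, receptors for microbial glycolipids, at 438 and 540 CPM against 17.3 and 21.6 CPM. F10, coagulation factor X, was at 196 against 7.75 CPM. Fibroblast genes were also present in these 15 barcodes as in macrophages, with the 7-gene list at 8574 and 5100 CPM, and erythroid genes summed to 345 and 1725 CPM.

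In sham the 7 leukocyte-gene members held 26109 UMIs in all, and the same comparison read differently. They include the 2 sham barcodes set apart above, 1 with fibroblast genes and 1 with genes of cytotoxic lymphocytes. The part of these 2 in the single genes below, Nr4a1 among them, was not tested. Of 4157 genes measured, 1283 (30.9%) were at least 2-fold higher than in macrophages and 836 (20.1%) lower, counts that such a small sum widens. Of 18 non-classical genes outside the rule, 12 were at least 2-fold higher (median log2 ratio 2.44, against 0.40). Cd300e was at 268 against 0.992 CPM in 3 of 7 barcodes, Ear2 at 383 against 5.95 CPM (64.4-fold, 28.5 to 132), Pglyrp1 at 345 against 3.64 CPM, S1pr5, a sphingosine phosphate receptor, at 153 against 1.32 CPM and Nr4a1 at 1494 against 211 CPM (7.07-fold). All 20 measured macrophage genes were lower, with Pf4, Mrc1, Folr2 and Lyve1 at 0 UMIs; with genes at 0 set to 3 counts the list median was −2.14. Classical genes were mixed, 7 of 15 higher and 4 lower, and Cd14, Il1b and Cxcl2 had 0 UMIs.

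Selecting genes were also measured in barcodes of the macrophage class. Among C1q-positive macrophages 19.4% held a Ccr2 UMI in sham and 41.3% in TAC, at 185 and 314 CPM, and thinned to 3000 UMIs in 16.8% and 33.5%. Plac8 was at 8.76 and 65.2 CPM in them, with up to 68 UMIs in 1 TAC barcode, and Chil3 at 0.827 and 18.4 CPM. In the leukocyte-gene members Ccr2 was at 575 and 1151 CPM and Plac8 at 1494 and 2028 CPM, by selection.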

How the data were processed

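Non-cardiomyocytes of sham and TAC hearts were captured with a 3′ droplet kit. Each group has 1 library, deposited as a matrix of raw UMI counts by gene and barcode. Cell Ranger 3.1.0 made it, per the file headers; mm10, Cell Ranger and Seurat are named in the submitters' processing notes. Not given in the sources used here: alignment settings, gene annotation and the role of Seurat. Cell names by the authors were not used. Of 31053 gene IDs, 31011 matched GENCODE vM21.

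UMIs of each class were summed per library and scaled to CPM, and log2((CPM + 1)/(CPM + 1)) was taken (Python 3.11.15, numpy 2.4.6, scipy 1.17.1). Genes at 50 CPM or more in either class with at least 10 UMIs were measured, and 2-fold counted as past the fold. Ratios have exact conditional intervals and shares Clopper-Pearson intervals, at 95%, for counting error only. A gene at 0 was set to 3 counts over the group for a bound. With 1 library per group no test was possible. C1q-positive macrophages had at least 10 C1q UMIs and met the other exclusions of the rule. Endothelial-gene barcodes had at least 5 UMIs of endothelial markers and were below the fibroblast and leukocyte limits.

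Doublets were called by Scrublet in scanpy 1.11.5 at an expected 7%, which called 99 sham (1.24%) and 163 TAC barcodes (2.04%), 4 and 7 of them members. They were kept, and removed as an alternative. Named genes were those outside the rule with the largest ratios each way, seen in at least 10% of members with at least 20 UMIs (10 for the sides of members) and at or above the level of all kept barcodes, and up to 4 genes of each list by size of ratio; a few genes so named are not reported here, and the comparisons of the 2 kinds of member and single barcodes were added after the values were seen. The members, the gene lists and the limits were chosen with earlier results of these data known. The scripts were checked on simulated counts.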

Additional observations from a re-analysis of the deposited data

How the results depend on the processing

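No paired analysis was possible because each group is 1 library and the labels give no shared replicate numbers; for the same reason no replicate could be left out. Of 123 recomputed shares and gene counts, 85 stayed within 1.5 times or the interval of the value given above, and 38 moved; the cause was not tested beyond what the setting itself changes. The TAC over sham ratio of the share of members was 2.99 with at least 4 selecting genes (6 and 18 barcodes), 2.06 with at least 2, 1.93 after thinning and 2.13 for leukocyte-gene members alone. Genes higher and lower in TAC members were 979 and 488 with at least 4 selecting genes, 143 and 95 with at least 2, 400 and 365 after thinning, 481 and 699 without barcodes holding UMIs of other cell types or lacking both Csf1r and Lyz2, 505 and 519 at 20 CPM, and 111 and 96 at 100 CPM. Against macrophages they were 322 and 246 with at least 4 genes, 988 and 760 at 20 CPM, 327 and 311 at 100 CPM, and 157 and 251 for leukocyte-gene members alone, and 330 were lower after thinning. Between the sides of all members they were 518 and 505 with at least 4 genes and 392 and 656 after thinning. Of fibroblast-gene members against other fibroblast-gene barcodes they were, in sham, 186 and 157 after thinning and 29 and 23 with CPM + 10, and in TAC 2 genes were lower after thinning and with the mean of each barcode's own CPM. Of leukocyte-gene members against macrophages, 1953 were higher in sham and 773 lower in TAC without barcodes with 1% or more in fibroblast genes, and 2147 higher in sham without barcodes with 10 or more Nkg7 UMIs.

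Of named genes, 1238 values stayed within their interval, 376 moved and 14 reversed. With at least 4 selecting genes the TAC over sham log2 ratio was −1.35 for Actn1 and 2.59 for Ret, with at least 2 it was 0.0635 for Dusp5, after thinning 1.39 for Cd300c2, and with the same barcodes left out 3.97 for Ccl11. For leukocyte-gene members alone the log2 ratio over macrophages was, in sham, −3.29 for Tnfaip6, −3.88 for Srpx, −6.84 for Pi16, −3.94 for Spon2 and −3.73 for Cpxm1, and in TAC −3.01 for Myoc, −2.34 for Cd248, −3.91 for Sox9 and −4.00 for Spon2. Depth limits the sham leukocyte-gene members, 26109 UMIs in all, as do the 2 barcodes among them with genes of other cells.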
